A study of Mus musculus with 4 samples.

Results

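The genes described here encode conjugating and detoxifying enzymes other than the cytochromes P450. They are the 128 of 23185 named genes on the array whose symbols begin with Gst (glutathione transferases of the classes alpha, kappa, mu, omega, pi, theta and zeta), Mgst (microsomal glutathione transferases), Ugt (UDP-glucuronosyltransferases and relatives), Sult (sulfotransferases), Ces (carboxylesterases), Fmo (flavin monooxygenases), Aldh (aldehyde dehydrogenases), Akr (aldo-keto reductases), Cbr (carbonyl reductases) or Pon (paraoxonases), followed by a number. The rule itself reads symbols and no signal. By family there were 19 Gst, 3 Mgst, 18 Ugt, 21 Sult, 18 Ces, 6 Fmo, 21 Aldh, 15 Akr, 4 Cbr and 3 Pon genes. The study asked what club cells become when reprogramming is switched on with doxycycline and then interrupted. It has 4 mouse populations with 1 Affymetrix array each.

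The Day0 population is described as club cells freshly taken from adult lung. The 3w+Dox population, named Club-iPL in the labels, was cultured from such cells for 3 weeks with doxycycline, a drug used to switch on inducible transgenes. Cells that then spent 2 more weeks in medium free of the drug form the 3w+Dox+2w-Dox group and are called withdrawn cells below. The iPS population consisted of induced pluripotent stem cells derived from club cells. The labels give neither strain nor transgene, nor how many animals or clones stood behind an array, and no club cells cultured without doxycycline were analysed here, so the drug and time in culture cannot be told apart.

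Airway club cells are known as a main site of foreign-compound metabolism in the lung. Phase 1 enzymes such as the flavin monooxygenases, carboxylesterases and reductases oxidise, split or reduce a compound, and phase 2 enzymes then attach glutathione, glucuronic acid or sulfate so that it can leave the cell. Aldehyde dehydrogenases oxidise aldehydes from lipid damage, from amino acid breakdown and from retinol, whose product retinoic acid controls lung development. Many of these genes answer to the aryl hydrocarbon receptor, which binds DNA at the core letters GCGTG, or to Nrf2, the transcription factor of the oxidant response, which binds at the core letters TGACNNNGC.

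Promoters of 4 members are shown because their genes carry the main patterns below: Sult1d1 and Gsta3 were lower in all 3 cultures, and Aldh1a1 and Aldh1a7 are related genes of the same chromosome with unequal responses. Each window runs from 250 bases before to 50 bases after a transcript start in RefSeq, build GRCm38.p6, written 5′ to 3′ on the gene's strand, and for Aldh1a1 it is the first of the 2 starts listed there. Capitals mark a match to GCGTG or TGACNNNGC on either strand.
Sult1d1 promoter, chr5:87568957-87569256, minus strand: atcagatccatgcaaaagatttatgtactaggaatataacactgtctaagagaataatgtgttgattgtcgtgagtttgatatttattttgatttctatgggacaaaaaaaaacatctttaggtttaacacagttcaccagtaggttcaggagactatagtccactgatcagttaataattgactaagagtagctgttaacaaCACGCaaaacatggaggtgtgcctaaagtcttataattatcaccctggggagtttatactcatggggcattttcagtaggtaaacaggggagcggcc
Gsta3 promoter, chr1:21240335-21240634, plus strand: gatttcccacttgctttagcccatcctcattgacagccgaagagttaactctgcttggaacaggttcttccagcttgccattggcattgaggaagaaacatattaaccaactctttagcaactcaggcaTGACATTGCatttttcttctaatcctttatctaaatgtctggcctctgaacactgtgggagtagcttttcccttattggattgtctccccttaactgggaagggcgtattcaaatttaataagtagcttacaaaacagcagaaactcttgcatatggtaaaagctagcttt
Aldh1a1 promoter, chr19:20492333-20492632, plus strand: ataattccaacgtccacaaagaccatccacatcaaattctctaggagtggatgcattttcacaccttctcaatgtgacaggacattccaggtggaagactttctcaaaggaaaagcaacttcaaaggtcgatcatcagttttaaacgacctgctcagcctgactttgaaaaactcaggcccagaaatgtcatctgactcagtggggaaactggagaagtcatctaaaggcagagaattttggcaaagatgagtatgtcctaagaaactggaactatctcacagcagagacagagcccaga
Aldh1a7 promoter, chr19:20727507-20727806, minus strand: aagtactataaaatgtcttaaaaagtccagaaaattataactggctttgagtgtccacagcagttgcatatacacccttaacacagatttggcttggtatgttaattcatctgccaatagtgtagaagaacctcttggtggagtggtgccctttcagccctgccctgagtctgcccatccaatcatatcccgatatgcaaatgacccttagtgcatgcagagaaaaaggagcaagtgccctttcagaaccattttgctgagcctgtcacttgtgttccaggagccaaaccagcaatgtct
Sult1d1 holds a GCGTG match on the opposite strand, Gsta3 holds a TGACNNNGC match, and neither Aldh1a window holds a match. The 2 Aldh1a windows had 53.9% identical letters in a global alignment, against 49% to 52.4% between the other pairs of these 4 windows. A promoter was listed for 108 of the 128 members. TGACNNNGC was found in 9 of these 108 (8.33%), against 12.5% of 27025 promoters in the table, and in 1 of the 21 with a promoter that were lower at 3w+Dox (4.76%). GCGTG was found in 21 of 108 (19.4%), against 32.5% of all promoters, and in 4 of those 21 (19%). Both letter strings were thus found in a smaller share of the members' windows than of all windows, which says nothing of the factors themselves.

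Signals are log2 values from RMA, so a difference of 1 is 2-fold, and signed values below are log2 differences from Day0 unless another population is named. The words higher and lower count a gene when a pair of arrays differ at least 4-fold for it and the brighter signal reaches 6.67, the median signal over the 4 arrays. With 1 array per population there is no spread between replicates, no test and no p-value, the number of arrays limits the precision, and each difference below is that between these arrays. A signal of about 3 to 5 lies near background, so a fold against it is not exact. Of the 128 members, 55 were below 6.67 on every array and so could not be counted, 29 were brighter but were not counted in any of 5 comparisons, and 44 were counted in at least 1. The members that reached 6.67 on an array numbered 73 of 128, against 14131 of 23185 named genes. How many of all named genes were counted in any comparison was not computed.

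Markers of other cells moved with the arrays. Of 14 fibroblast genes, 14 exceeded their Day0 signal at least 4-fold at 3w+Dox, and their summed linear signal was 61300 at 3w+Dox, 61900 after withdrawal and 20900 in iPS cells, against 1270 at Day0. At or above 6.67 were 14 of them at 3w+Dox, 14 after withdrawal and 12 in iPS cells, against 3 at Day0. Leukocyte genes summed to 11500, 15200 and 2120 in these cultures, against 1120 at Day0, with 9 of 11 at least 4-fold higher at 3w+Dox. Club cell genes summed to 33500 at 3w+Dox, 44400 after withdrawal and 1760 in iPS cells, against 109000 at Day0, and ciliated cell genes to 2130, 8400 and 1710, against 20400. Alveolar type 2 genes summed to 35500, 42000 and 3160, against 61100 at Day0, and 11 of 11 were at or above 6.67 in the Day0 isolate. So were 15 of 15 ciliated cell genes, of which 14 were lower at 3w+Dox, against 2.88% of all named genes. The Day0 isolate thus held signal of genes that mark other cell types. A signal lower than at Day0 is therefore not assigned to club cells here. In iPS cells 11 of 12 pluripotency genes were at or above 6.67. The part of these cell types in the differences below was not tested, and in such bulk samples fewer cells of a type and less RNA per cell cannot be told apart.

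Most enzyme genes were not counted as different from Day0 at 3w+Dox (99 of 128, against 21518 of 23185 named genes), and among the others more were lower than higher. At 3w+Dox, 26 of 128 were lower than at Day0 (20.3%), against 2.88% of all named genes, and 3 were higher (2.34%), against 4.31%. At 2-fold, 37 were lower, against 7.52%, and 9 higher, against 8.67%. The median difference was -0.44 over the 128 members and -0.09 over all named genes. Lower members were found in 8 of the 10 families: 7 Gst, 5 Fmo, 4 Ces, 4 Aldh, 2 Sult, 2 Ugt, 1 Akr and 1 Pon gene. Among genes at or above the 75th percentile of all values (8.82) at Day0, 22 of 50 members (44%) were lower, against 6.93% of all 6059 genes that bright.

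**Figure D1:**
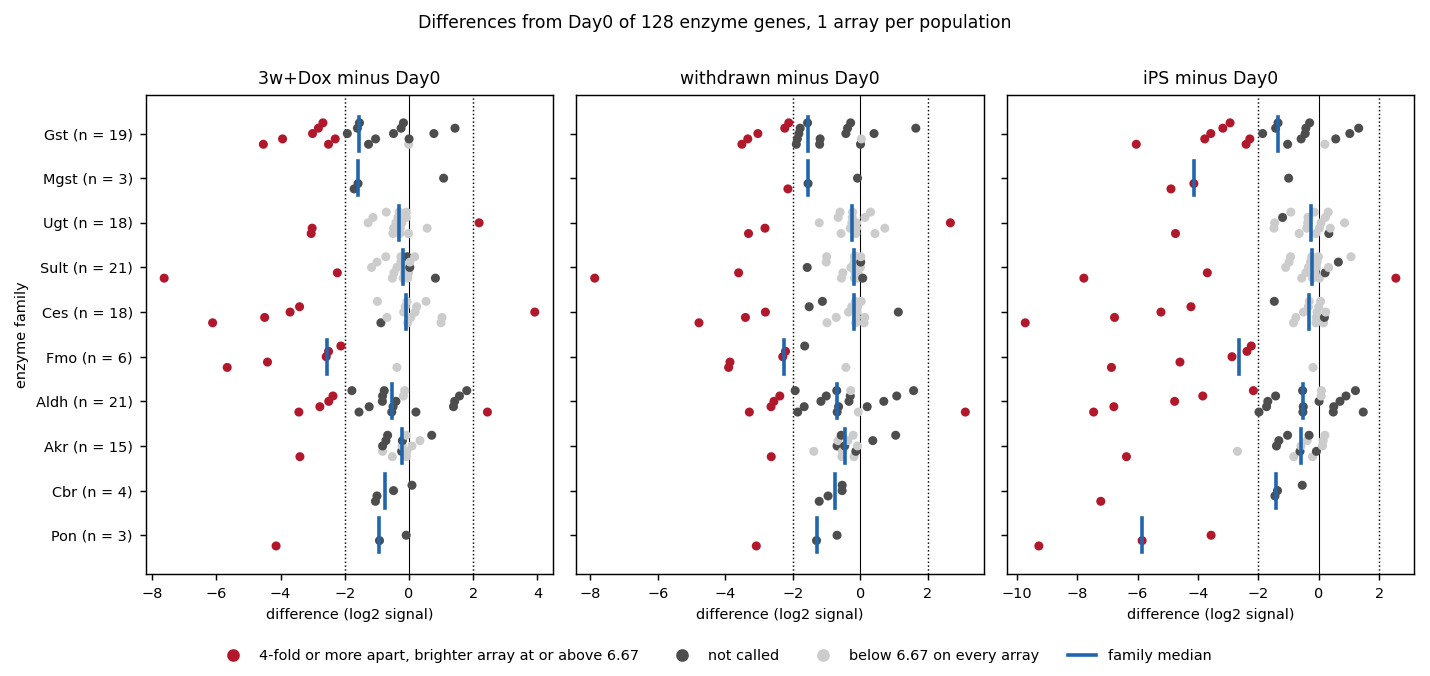
Difference from Day0 on the log2 scale (x axis) of each of 128 enzyme genes by family (y axis) in 3w+Dox, withdrawn and iPS cells, 1 array per population; red points are at least 4-fold apart with the brighter array at or above 6.67, light grey points are below 6.67 on every array, blue bars are family medians and dotted lines mark 4-fold. Red points to the left number 26 (3w+Dox), 23 (withdrawn) and 31 (iPS), and those to the right 3, 2 and 1.

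Glutathione transferases join the tripeptide glutathione to reactive compounds. Of 19 Gst genes, 7 were lower at 3w+Dox and 0 higher, with a family median of -1.54. Gsta3, an alpha class enzyme that in the mouse protects against aflatoxin, had signals of 11.93 (Day0), 8.93 (3w+Dox), 8.90 (withdrawn cells) and 5.89 (iPS cells). Its signal was 8.03-fold lower at 3w+Dox, nothing of that was undone after withdrawal, and the lowest signal was that of iPS cells. Gsta4, which clears the lipid aldehyde 4-hydroxynonenal, gave 12.44 at Day0, 12.19 at 3w+Dox, 10.87 after withdrawal and 12.01 in iPS cells. It stayed within 2-fold of Day0 at 3w+Dox and in iPS cells, and was lowest in withdrawn cells.

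The mu class genes differed among themselves. Gstm6 had signals of 8.86 (Day0), 4.32 (3w+Dox), 5.35 (withdrawn cells) and 5.92 (iPS cells), a difference of -4.54 at 3w+Dox. Gstm3 gave 8.91 at Day0, 4.97 at 3w+Dox, 5.58 after withdrawal and 10.23 in iPS cells, 15.3-fold lower at 3w+Dox. Unlike Gstm6, Gstm3 was bright in iPS cells, 38.2-fold higher than at 3w+Dox and 1.32 above Day0, and it was the only member counted as higher in iPS than in 3w+Dox cells. Gstm7 had signals of 9.39 (Day0), 6.71 (3w+Dox), 7.57 (withdrawn cells) and 7.53 (iPS cells), and Gstm2 gave 13.13 at Day0, 11.53 at 3w+Dox, 11.94 after withdrawal and 10.85 in iPS cells. Gstm7 was counted as lower at 3w+Dox, and Gstm2 only in iPS cells (-2.29). Gstm5 went the other way without being counted, with 8.98 at 3w+Dox, 9.19 after withdrawal and 8.57 in iPS cells, against 7.55 at Day0. Gstm1 and Gstm4 differed by -1.04 and -0.48 at 3w+Dox. Mu class genes are alike in sequence, and how their probes were kept apart is not given in the sources used here, so their separate values are uncertain.

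The theta class acts on small halogenated compounds. Gstt1 had signals of 11.96 (Day0), 9.13 (3w+Dox), 10.06 (withdrawn cells) and 8.18 (iPS cells). It was 7.08-fold lower at 3w+Dox, brighter again after withdrawal and lowest in iPS cells. Gstt2 gave 9.53 at Day0, 7.03 at 3w+Dox, 7.30 after withdrawal and 8.10 in iPS cells, and its signal in iPS cells was above those at 3w+Dox and after withdrawal. Gstt3 had signals of 11.62 (Day0), 9.70 (3w+Dox), 9.75 (withdrawn cells) and 8.04 (iPS cells), counted as lower only in iPS cells, where it differed by -3.58. Gstt4 lay between 5.12 and 5.33 on all arrays, below 6.67. Gstz1, an isomerase of tyrosine breakdown, gave 11.12 at Day0, 8.82 at 3w+Dox, 9.0 after withdrawal and 8.71 in iPS cells. Its 3 cultures lay close together, each at least 4-fold below Day0. Gstk1, the kappa class enzyme of mitochondria and peroxisomes, had signals of 12.89 (Day0), 11.35 (3w+Dox), 11.11 (withdrawn cells) and 9.71 (iPS cells), and only its iPS signal was more than 4-fold below Day0.

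Gstp1, the pi class enzyme, gave 12.06 at Day0, 11.89 at 3w+Dox, 12.07 after withdrawal and 11.61 in iPS cells, so its 4 signals lay within 0.5 log2 units of each other. Gsto1, an omega class thiol transferase, had signals of 12.39 (Day0), 13.17 (3w+Dox), 12.10 (withdrawn cells) and 11.04 (iPS cells), highest at 3w+Dox and 4.36-fold lower in iPS than in 3w+Dox cells. Gsto2 and Gstp3 were not counted in any comparison.

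The microsomal transferases are membrane enzymes unrelated to the soluble Gst in sequence. Mgst1, which also reduces lipid hydroperoxides, had signals of 12.99 (Day0), 11.41 (3w+Dox), 11.45 (withdrawn cells) and 8.10 (iPS cells). Mgst2, which can make leukotriene C4, gave 9.57 at Day0, 7.86 at 3w+Dox, 7.42 after withdrawal and 5.43 in iPS cells. Mgst1 and Mgst2 were at -1.59 and -1.71 at 3w+Dox, short of 4-fold, and at -4.90 and -4.14 in iPS cells. Mgst3 had signals of 9.09 (Day0), 10.16 (3w+Dox), 9.0 (withdrawn cells) and 8.09 (iPS cells), highest at 3w+Dox. All 3 Mgst genes were counted as lower in iPS than in 3w+Dox cells.

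Sulfotransferases attach sulfate from the donor PAPS. The largest difference of any member at 3w+Dox was that of Sult1d1, which in the mouse sulfates catecholamines. Sult1d1 had signals of 10.78 (Day0), 3.15 (3w+Dox), 2.91 (withdrawn cells) and 3.00 (iPS cells). It was 198-fold lower at 3w+Dox, and its signals in the 3 cultures were all near background, so nothing of the Day0 signal was seen again after withdrawal or in iPS cells. Sult1a1, a phenol sulfotransferase, gave 10.08 at Day0, 7.85 at 3w+Dox, 6.48 after withdrawal and 6.39 in iPS cells. It was 4.70-fold lower at 3w+Dox and, unlike most members, lower still after withdrawal, 12.2-fold below Day0. Sult2b1, which sulfates cholesterol, had signals of 7.23 (Day0), 7.17 (3w+Dox), 5.66 (withdrawn cells) and 7.44 (iPS cells) and was dimmer in withdrawn cells alone, without reaching 4-fold. Sult4a1, a brain-enriched member with no settled substrate, gave 5.26 at Day0, 6.08 at 3w+Dox, 5.27 after withdrawal and 7.80 in iPS cells. It was the only member counted as higher in iPS cells than at Day0, by 2.55. Of the other 17 Sult genes, 16 were below 6.67 on every array, among them all 8 Sult2a genes, and Sult5a1 was between 6.22 and 6.86.

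Glucuronosyltransferases were dim on these arrays, with 15 of 18 below 6.67 throughout, including all 10 Ugt2 genes. Ugt1a6b, a form that conjugates phenols, had signals of 7.58 (Day0), 4.54 (3w+Dox), 4.27 (withdrawn cells) and 2.84 (iPS cells). Ugt1a7c gave 5.93 at Day0, 8.11 at 3w+Dox, 8.60 after withdrawal and 6.26 in iPS cells. The 2 genes thus differed from Day0 in opposite directions, by -3.05 and 2.18 at 3w+Dox and by -3.31 and 2.67 in withdrawn cells. Ugt1a genes share their last exons, so probes there cannot separate them. Ugt8a, which makes galactosylceramide, a lipid of myelin, had signals of 8.55 (Day0), 5.53 (3w+Dox), 5.73 (withdrawn cells) and 7.35 (iPS cells). It was 8.10-fold lower at 3w+Dox and 2.30-fold lower in iPS cells than at Day0.

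**Figure D2:**
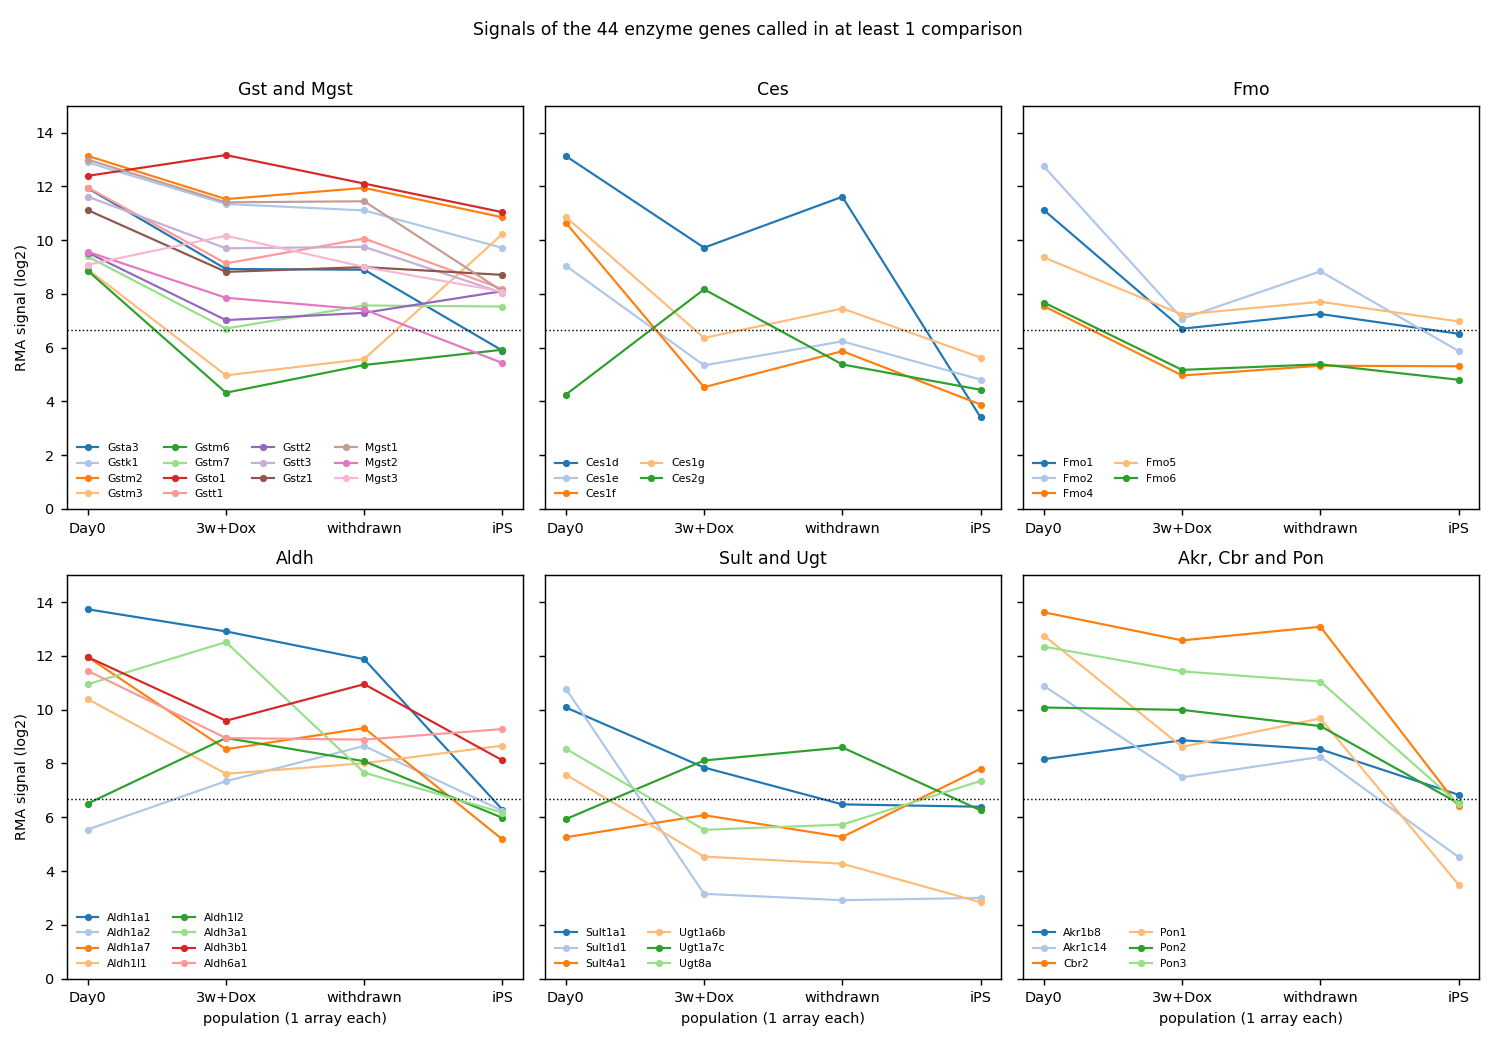
RMA signal on the log2 scale (y axis) in the 4 populations (x axis, 1 array each) of the 44 enzyme genes counted in at least 1 comparison, a line per gene, in 6 panels by family; the dotted line is 6.67. Most lines drop after Day0, Aldh3a1, Ces2g, Aldh1l2, Gsto1, Mgst3 and Akr1b8 peak at 3w+Dox, and Sult1d1 stays near background in all cultures.

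Carboxylesterases split esters and amides in drugs and in stored lipid. Of 8 Ces1 genes, 4 were lower at 3w+Dox, and these 4 follow each other on the chromosome. Ces1d, which also hydrolyses triglycerides, had signals of 13.13 (Day0), 9.72 (3w+Dox), 11.61 (withdrawn cells) and 3.41 (iPS cells). Its signal was 10.6-fold lower at 3w+Dox, came back to within 2.86-fold of Day0 after withdrawal and was 843-fold lower in iPS cells, where it read near background. Ces1f gave 10.65 at Day0, 4.53 at 3w+Dox, 5.87 after withdrawal and 3.89 in iPS cells. Ces1f was 69.5-fold lower at 3w+Dox and 27.5-fold lower in withdrawn cells. Ces1g had signals of 10.86 (Day0), 6.36 (3w+Dox), 7.46 (withdrawn cells) and 5.63 (iPS cells), and Ces1e gave 9.05 at Day0, 5.34 at 3w+Dox, 6.24 after withdrawal and 4.81 in iPS cells. Both were counted as lower in each culture against Day0, with the withdrawn signal between that of 3w+Dox and that of Day0. The flanking genes Ces1a, Ces1b, Ces1c and Ces1h differed by -0.69, -0.88, 1.0 and -0.99 at 3w+Dox, and of these only Ces1b exceeded 6.67 on an array. Ces1 genes are alike in sequence, with the same limit as the mu class.

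Ces2g stood out among the 6 Ces2 genes. It had signals of 4.25 (Day0), 8.17 (3w+Dox), 5.38 (withdrawn cells) and 4.43 (iPS cells). The signal was 15.1-fold higher with 3w+Dox than in Day0 cells, 6.94-fold lower in withdrawn than in 3w+Dox cells, and within 2-fold of Day0 in iPS cells. Goblet cell genes had summed linear signals of 3700 at Day0, 14500 at 3w+Dox, 1870 after withdrawal and 559 in iPS cells. The list was split at 3w+Dox, with 4 of 8 higher and 2 lower than at Day0 and differences from -2.63 to 4.73. The part of goblet cells in the Ces2g signal was not tested. The other 5 Ces2 genes and Ces3a, Ces3b, Ces4a and Ces5a were below 6.67 on every array.

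**Figure D3:**
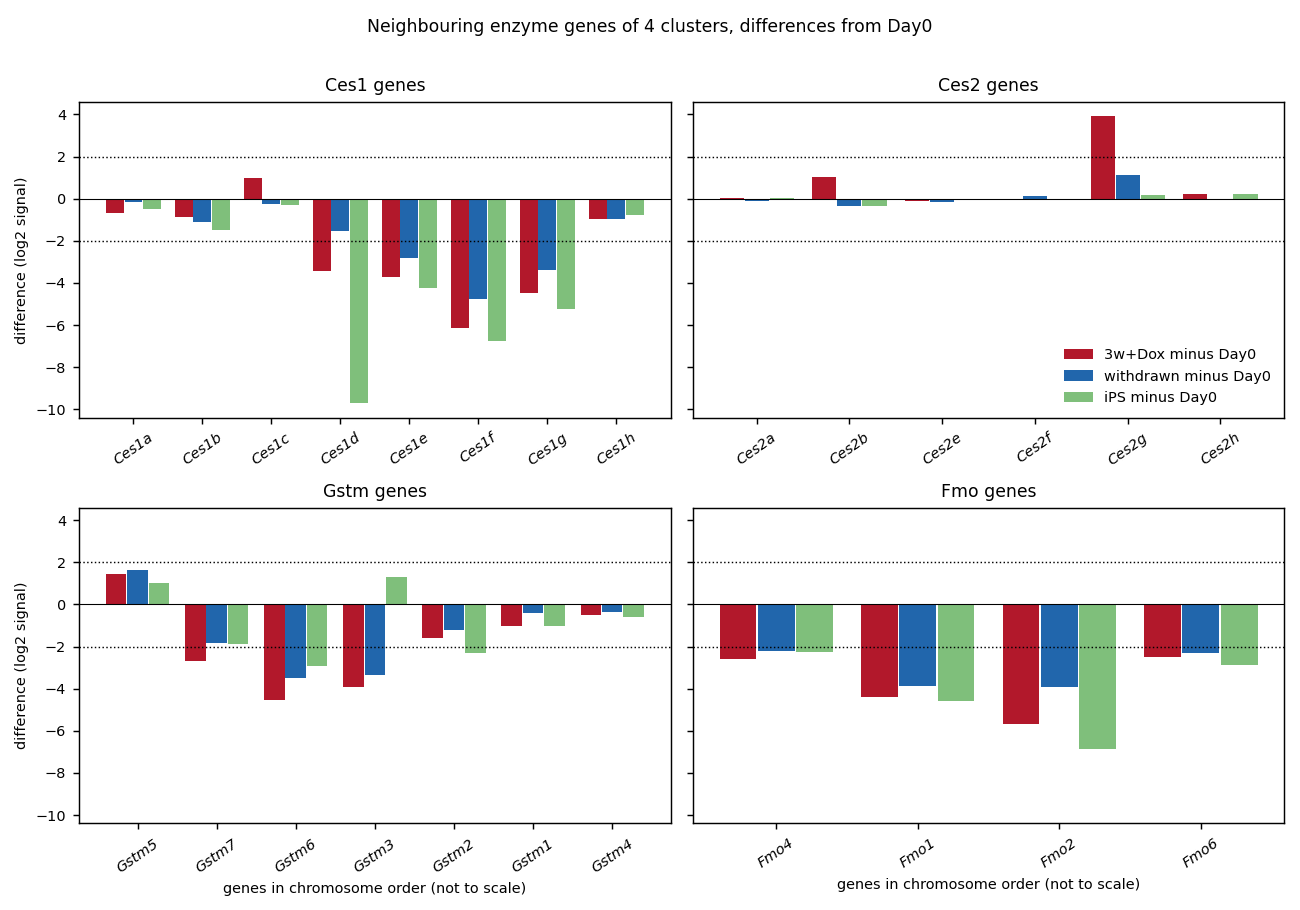
Difference from Day0 on the log2 scale (y axis) in 3w+Dox, withdrawn and iPS cells of the measured genes of 4 clusters, drawn in chromosome order and not to scale; dotted lines mark 4-fold. Ces1d to Ces1g lie together below -2 at 3w+Dox, Ces2g alone of its cluster lies above 2, Gstm3 is above 0 in iPS cells alone, and the 4 Fmo genes shown lie below -2 in each culture.

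Flavin monooxygenases oxidise nitrogen and sulfur atoms in drugs and nicotine. Of 6 Fmo genes, 5 were lower at 3w+Dox, and the same 5 were lower in iPS cells. Fmo2, the main form of lung, had signals of 12.74 (Day0), 7.08 (3w+Dox), 8.84 (withdrawn cells) and 5.87 (iPS cells). It was 50.7-fold lower at 3w+Dox, 14.9-fold lower after withdrawal and 117-fold lower in iPS cells than at Day0. Fmo1 gave 11.11 at Day0, 6.70 at 3w+Dox, 7.25 after withdrawal and 6.52 in iPS cells, with 21.3-fold lower signal at 3w+Dox and 14.5-fold lower after withdrawal. Fmo4 and Fmo6 differed by -2.58 and -2.51 at 3w+Dox and read below 6.67 in all 3 cultures. Fmo5, which acts mainly on ketones, had signals of 9.36 (Day0), 7.23 (3w+Dox), 7.71 (withdrawn cells) and 6.98 (iPS cells), so it was counted at 3w+Dox and in iPS cells but not after withdrawal. Fmo9 was below 6.67 on every array.

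The aldehyde dehydrogenases moved in both directions. Of 21 Aldh genes, 4 were lower and 1 higher at 3w+Dox. The related enzymes Aldh1a1, Aldh1a2 and Aldh1a3 make retinoic acid from retinaldehyde. Aldh1a1 had signals of 13.74 (Day0), 12.91 (3w+Dox), 11.88 (withdrawn cells) and 6.28 (iPS cells). It stayed within 2-fold of Day0 at 3w+Dox, and was 3.62-fold lower after withdrawal and 175-fold lower in iPS cells. Its Day0 signal lies close to the highest value on the arrays (13.85). Aldh1a7, its close relative that acts poorly on retinaldehyde, gave 11.96 at Day0, 8.53 at 3w+Dox, 9.32 after withdrawal and 5.18 in iPS cells. Its signal was 10.8-fold lower at 3w+Dox, where that of Aldh1a1 was 1.77-fold lower. How the probes of these 2 related genes were kept apart is not given in the sources used here, so their separate values are uncertain. Aldh1a2 had signals of 5.54 (Day0), 7.34 (3w+Dox), 8.65 (withdrawn cells) and 6.24 (iPS cells). It was brighter at 3w+Dox than at Day0 and brighter again after withdrawal, and was counted as higher in withdrawn cells, 8.62-fold above Day0. Fibroblast genes were also higher on the same arrays, and their part in the Aldh1a2 signal was not tested. Aldh1a3 gave 5.46 at Day0, 6.88 at 3w+Dox, 6.15 after withdrawal and 5.95 in iPS cells, highest at 3w+Dox without reaching 4-fold.

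Folate aldehyde dehydrogenases showed opposite differences. Aldh1l1, the enzyme of the cytosol that removes formyl groups from folate, had signals of 10.40 (Day0), 7.62 (3w+Dox), 8.01 (withdrawn cells) and 8.66 (iPS cells). Aldh1l2, its mitochondrial counterpart, gave 6.51 at Day0, 8.95 at 3w+Dox, 8.08 after withdrawal and 5.98 in iPS cells. Against Day0, Aldh1l1 was 6.86-fold lower and Aldh1l2 5.43-fold higher at 3w+Dox, and in iPS cells Aldh1l2 was within 2-fold of Day0.

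Aldh3a1, which oxidises aldehydes of lipid peroxidation and responds to the aryl hydrocarbon receptor, had signals of 10.95 (Day0), 12.52 (3w+Dox), 7.66 (withdrawn cells) and 6.17 (iPS cells). It exceeded Day0 2.97-fold at 3w+Dox, short of 4-fold, and was 29.0-fold lower in withdrawn than in 3w+Dox cells. Its relative Aldh3b1 gave 11.96 at Day0, 9.59 at 3w+Dox, 10.95 after withdrawal and 8.12 in iPS cells, so it took the opposite path, lower at 3w+Dox and within 2.01-fold of Day0 after withdrawal. Aldh3a2, the fatty aldehyde enzyme, differed by -0.83 at 3w+Dox, and Aldh2, which oxidises acetaldehyde, by -1.24.

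Aldehyde dehydrogenases of amino acid breakdown were all below Day0 at 3w+Dox, at -2.50 for Aldh6a1 of valine breakdown, -1.78 for Aldh5a1 of GABA breakdown, -1.56 for Aldh4a1 of proline breakdown and -0.77 for Aldh7a1 of lysine breakdown, with Aldh6a1 alone reaching 4-fold. Aldh6a1 had signals of 11.45 (Day0), 8.95 (3w+Dox), 8.89 (withdrawn cells) and 9.28 (iPS cells). Aldh18a1, which works in proline synthesis, was above Day0 by 1.38 at 3w+Dox, 1.08 in withdrawn and 1.21 in iPS cells, in each case under 4-fold. The remaining Aldh genes, Aldh16a1, Aldh1b1, Aldh3b2, Aldh3b3, Aldh8a1 and Aldh9a1, were within 2-fold of Day0 on the other arrays, except Aldh1b1, which was 1.47 above Day0 in iPS cells.

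Among the reductases and paraoxonases, Akr1c14, Cbr2, Pon1, Pon2 and Pon3 were bright at Day0 and furthest from it in iPS cells. Akr1c14, a steroid reductase, had signals of 10.88 (Day0), 7.49 (3w+Dox), 8.25 (withdrawn cells) and 4.52 (iPS cells). It was 10.5-fold lower at 3w+Dox and 82.7-fold lower in iPS cells. Akr1c18, which inactivates progesterone, gave 7.12 at Day0, 6.45 at 3w+Dox, 8.16 after withdrawal and 5.71 in iPS cells and was highest in withdrawn cells, by 1.71 against 3w+Dox. Akr1b8 had signals of 8.16 (Day0), 8.87 (3w+Dox), 8.53 (withdrawn cells) and 6.83 (iPS cells), 4.09-fold lower in iPS than in 3w+Dox cells, and it dropped below 4-fold when the arrays were quantile normalized a second time or centred on their brighter genes. Akr1a1, a general aldehyde reductase, lay between 12.23 and 12.86. Akr1b10, Akr1e1 and Akr7a5 were within 2-fold of Day0 at 3w+Dox (-0.72, -0.23 and -0.82) and within 4-fold on every array, and 8 of the 13 Akr genes that were never counted were below 6.67 on every array. One of these, Akr1c13, was -2.70 in iPS cells against Day0, beyond 4-fold but too dim to count. Akr1c genes are alike in sequence too.

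Cbr2, a lung carbonyl reductase known as a club cell protein, had signals of 13.63 (Day0), 12.58 (3w+Dox), 13.09 (withdrawn cells) and 6.41 (iPS cells). Its signal was within 4-fold of Day0 at 3w+Dox and after withdrawal and 149-fold lower in iPS cells. Cbr1, Cbr3 and Cbr4 were at -1.45, -1.37 and -0.55 in iPS cells against Day0.

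Pon1, an esterase that circulates on lipoproteins and splits organophosphates, gave 12.76 at Day0, 8.62 at 3w+Dox, 9.68 after withdrawal and 3.49 in iPS cells. Pon2, an intracellular relative, had signals of 10.08 (Day0), 9.99 (3w+Dox), 9.39 (withdrawn cells) and 6.51 (iPS cells), and Pon3 gave 12.35 at Day0, 11.43 at 3w+Dox, 11.05 after withdrawal and 6.50 in iPS cells. Pon1 was the only Pon gene counted as lower at 3w+Dox (17.6-fold), while in iPS cells Pon1, Pon2 and Pon3 were 617-, 11.9- and 57.7-fold lower than at Day0.

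The step from 3w+Dox to withdrawn cells moved few enzyme genes past 4-fold. In withdrawn cells 2 members, Aldh3a1 and Ces2g, were lower than at 3w+Dox (1.56%), against 0.47% of all named genes, and 0 were higher, against 0.302%. The median difference was 0.04 over members and 0.03 over all named genes. At 2-fold, 9 of 128 members were lower, against 437 of 23185 named genes (1.88%), and 7 of 128 were higher, against 337 (1.45%). Both are larger shares than those of all named genes. The lower ones, besides these 2, were Sult2b1 (-1.52), Sult1a1 (-1.37), Gsta4 (-1.32), Cbr3 (-1.31), Mgst3 (-1.16), Gsto1 (-1.06) and Aldh1a1 (-1.03). The higher ones were Ces1d (1.89), Fmo2 (1.76), Akr1c18 (1.71), Aldh3b1 (1.36), Aldh1a2 (1.31), Ces1g (1.09) and Pon1 (1.06). On the same arrays 4 of 8 goblet cell genes were lower and 0 higher, with a summed linear signal of 1870 in withdrawn cells and 14500 at 3w+Dox. Their differences ran from -6.53 to 1.81, so the goblet cell genes did not all move the same way. Of 15 ciliated cell genes 5 were higher, with a sum of 8400 in withdrawn cells and 2130 at 3w+Dox. The part of either cell type was not tested.

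Against Day0, 23 of 128 members were lower in withdrawn cells (18%), against 1.85% of all named genes, and 2 were higher, Aldh1a2 and Ugt1a7c, against 4.05%. At 2-fold, 42 were lower, against 7.76%, and 6 higher, against 7.85%. Among genes at or above 8.82 at Day0, 19 of 50 members were lower, against 5.1%. The median difference was -0.52 over members and -0.08 over all named genes. Of the 26 members lower at 3w+Dox, 21 (80.8%) were still lower in withdrawn cells and 0 lay within 2-fold of Day0. Among all 667 genes lower at 3w+Dox, 338 (50.7%) were still lower and 31 (4.65%) lay within 2-fold. Aldh3b1 missed that bound at 2.01-fold, and the sets were not matched for the size of the difference at 3w+Dox. These comparisons share their arrays, so the counts describe the 26 genes and are no separate support. The share of the log2 difference undone had a median of 18.6% over the 26 members and 25.5% over the 667 genes. It was largest for Aldh3b1 (57.4%) and Ces1d (55.6%), followed by Gstt1 (32.8%), Gstm7 (32.1%) and Fmo2 (31.1%). In 5 genes, Sult1a1, Ugt1a6b, Sult1d1, Aldh6a1 and Gsta3, the withdrawn signal was further from Day0 than that at 3w+Dox, by under 0.3 log2 units in all but Sult1a1. Aldh3a1 and Mgst2 were counted as lower than Day0 in withdrawn cells but not at 3w+Dox. The other 21 of the 23 members lower in withdrawn cells were lower at 3w+Dox too, against 338 of 430 named genes.

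**Figure D4:**
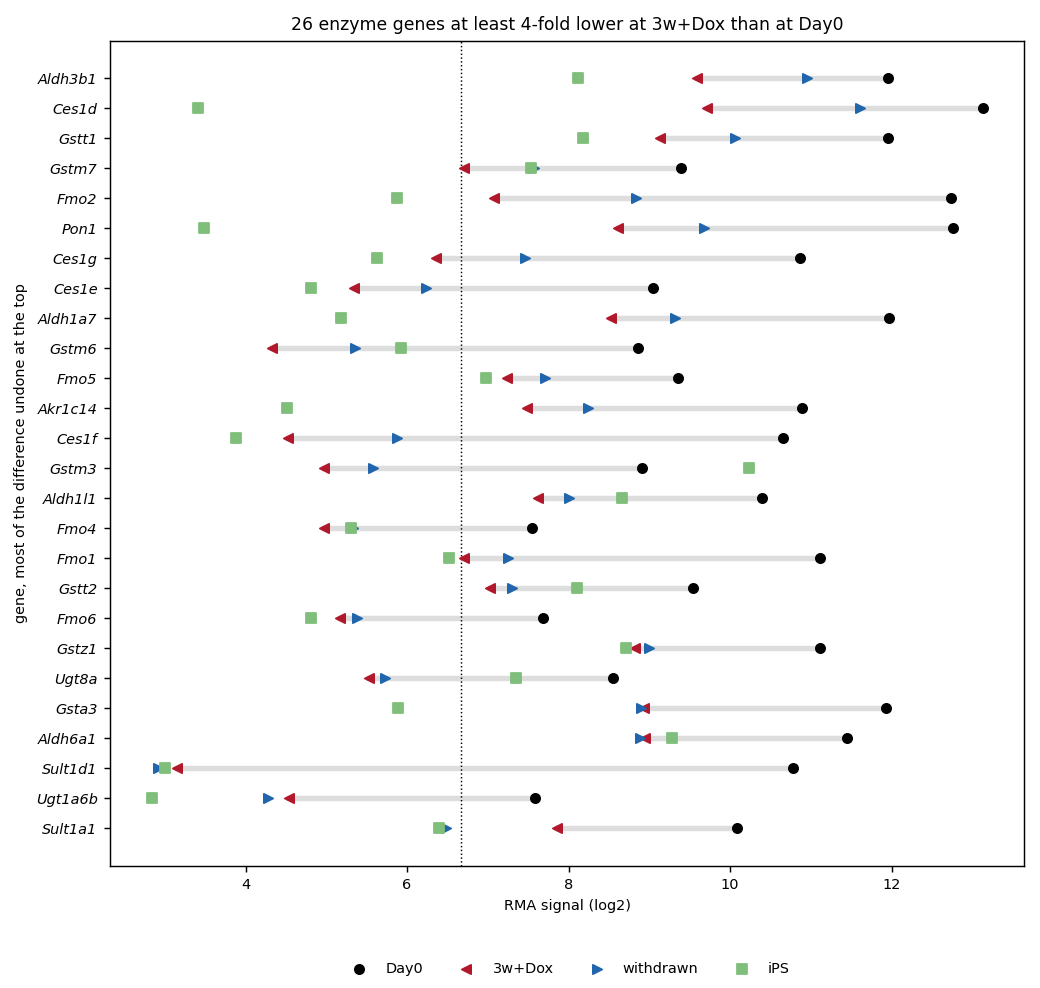
RMA signal on the log2 scale (x axis) of all 4 populations, 1 array each, for the 26 enzyme genes at least 4-fold lower at 3w+Dox than at Day0 (y axis), ordered by the share of that difference undone after withdrawal; grey bars join 3w+Dox to Day0 and the dotted line is 6.67. Withdrawn signals lie near the 3w+Dox end for most genes, with Aldh3b1 and Ces1d past the midpoint.

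In iPS cells 31 of 128 members were lower than at Day0 (24.2%), against 5.9% of all named genes, and 1 was higher, against 4.89%. At 2-fold, 47 were lower, against 12.4%, and 5 higher, against 13.1%. The median difference was -0.53 over members and 0.00 over all named genes. Of the 50 members at or above 8.82 at Day0, 28 (56%) were lower, against 16.7% of all genes that bright. Large differences were those of Ces1d (-9.72), Pon1 (-9.27), Sult1d1 (-7.78), Aldh1a1 (-7.46) and Cbr2 (-7.22). The iPS signals of Ces1d, Pon1 and Sult1d1 lay near background, so the order of these genes is not settled. With a floor at the 25th percentile of all values, the differences were -8.06 for Ces1d, -7.69 for Pon1 and -5.71 for Sult1d1. The iPS list held 21 of the 26 members lower at 3w+Dox, a share similar to that of all named genes lower at 3w+Dox (530 of 667). It held 10 more members, namely Aldh1a1, Aldh3a1, Cbr2, Gstk1, Gstm2, Gstt3, Mgst1, Mgst2, Pon2 and Pon3. Of the 31 members lower in iPS cells, 21 were thus also lower at 3w+Dox, against 530 of 1368 named genes. Aldh1l1, Gstm3, Gstm7, Gstt2 and Ugt8a were lower at 3w+Dox and not in iPS cells. In all 3 cultures 17 members were lower than at Day0. These 3 comparisons share the Day0 array and the same count over all named genes was not made. The 17 therefore cannot be called particular to these enzymes. Set against 3w+Dox, iPS cells had 17 lower members (13.3%), against 5.16% of all named genes, and 1 higher, against 3.57%, with Aldh1a1 (-6.63), Aldh3a1 (-6.34), Ces1d (-6.31) and Cbr2 (-6.17) furthest apart. At 2-fold, 26 were lower, against 12.4%, and 10 higher, against 11.4%.

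Other genes of the same pathways were read from lists compiled by function. At 3w+Dox the median difference of all named genes was -0.09, and 4.31% of them were higher and 2.88% lower. Of 13 measured genes that supply cofactors, 0 were lower and 1 higher at 3w+Dox, with a list median of -0.28. That gene was Papss2, which makes the sulfate donor PAPS, and it had signals of 7.16 (Day0), 9.98 (3w+Dox), 10.01 (withdrawn cells) and 7.11 (iPS cells). Papss2 was thus higher at 3w+Dox and after withdrawal, where Sult1d1 and Sult1a1 were lower. The fibroblast genes were also higher there, and their part was not tested. Ugdh, which makes UDP-glucuronic acid, gave 9.66 at Day0, 11.27 at 3w+Dox, 11.01 after withdrawal and 9.73 in iPS cells. Gclc, the enzyme that limits glutathione synthesis, had signals of 11.65 (Day0), 10.46 (3w+Dox), 11.03 (withdrawn cells) and 10.06 (iPS cells). Neither Ugdh nor Gclc reached 4-fold, and Gss, the second step of glutathione synthesis, was counted as lower only in iPS cells (-2.40).

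Among 11 other conjugating transferases, 3 were counted as higher, against 4.31% of all named genes, and 2 as lower, against 2.88%, at 3w+Dox, with a median of 0.065. Nnmt, which methylates nicotinamide, and the prostaglandin synthases Hpgds and Ptges were higher by 3.56, 2.78 and 2.64. Hnmt, which inactivates histamine, was at -3.24, and Gnmt was the other lower gene, at -2.60. Of 17 hydrolases, reductases and dehydrogenases outside the families (median -0.34), 2 were higher, against 4.31% of all named genes, Dhrs9 (a retinol dehydrogenase, 4.02) and Mgll (monoacylglycerol lipase, 2.92), and 3 were lower, against 2.88%, the aldehyde oxidases Aox3 (-3.19) and Aox1 (-2.40) and the reductase Ptgr1 (-2.38). In withdrawn cells 2 of the 17 were lower than at 3w+Dox, against 0.47% of all named genes. They were Adh7, an alcohol and retinol dehydrogenase, which had signals of 10.57 (Day0), 10.47 (3w+Dox), 6.84 (withdrawn cells) and 5.02 (iPS cells), and Nqo1, a quinone reductase and Nrf2 target, which gave 10.39 at Day0, 11.14 at 3w+Dox, 8.97 after withdrawal and 8.53 in iPS cells. Like Aldh3a1, both were more than 4-fold lower at the withdrawal step and within 4-fold of Day0 at 3w+Dox.

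Regulators of these genes were read in the same way. Of 19 measured, with a median of -0.088, 0 were higher at 3w+Dox, against 4.31% of all named genes, and 1 was lower, against 2.88%. The lower gene was Ppara, a receptor that drives fatty acid oxidation (-2.43). Nfe2l2, which encodes Nrf2, had signals of 12.41 (Day0), 12.58 (3w+Dox), 11.82 (withdrawn cells) and 11.58 (iPS cells), and its inhibitor Keap1 gave 8.45 at Day0, 8.08 at 3w+Dox, 8.14 after withdrawal and 7.68 in iPS cells. Ahr, the aryl hydrocarbon receptor, had signals of 10.70 (Day0), 10.69 (3w+Dox), 10.70 (withdrawn cells) and 8.87 (iPS cells). These 3 lay within 2-fold of Day0 at 3w+Dox and after withdrawal. In iPS cells 5 of 19 were lower, against 5.9% of all named genes, namely Foxa1 (-5.53), Pparg (-4.57), Cebpa (-4.44), Foxa2 (-3.73) and Ppara (-2.44). Of 18 Nrf2 targets outside the families (median -0.24), 1 was lower at 3w+Dox, Osgin1 (-2.58), against 2.88% of all named genes, and 0 were higher, against 4.31%.

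Among 17 retinoid genes, with a median of 0.036, 4 stood higher, against 4.31% of all named genes, and 1 lower, against 2.88%, at 3w+Dox. The retinoic acid binding proteins Crabp1 and Crabp2 were higher by 5.78 and 2.15, the retinoic acid responsive gene Rarres1 by 5.12 and Dhrs9 as above, while Rbp4, the carrier of retinol, was at -2.51. Rarb, a retinoic acid receptor, was at -1.55 at 3w+Dox and was counted as lower in withdrawn (-2.07) and iPS cells (-4.42). The fibroblast genes were also higher at 3w+Dox, and their part in the retinoid genes was not tested. Crabp1 had signals of 6.22 (Day0), 12.00 (3w+Dox), 12.87 (withdrawn cells) and 12.56 (iPS cells), so it was bright in every culture, beside an Aldh1a1 signal that was bright in all but iPS cells. Of 12 drug transporters (median -0.13), 2 were higher, against 4.31% of all named genes, and 0 lower, against 2.88%, at 3w+Dox. They were Abcg2, an efflux pump also used to mark stem-like cells, which gave 4.19 at Day0, 8.33 at 3w+Dox, 7.88 after withdrawal and 8.32 in iPS cells, and Abcb1b, which had signals of 5.17 (Day0), 7.33 (3w+Dox), 6.50 (withdrawn cells) and 8.79 (iPS cells). Abcc3, a pump for glucuronides, was at -6.06 in iPS cells.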

How the data were processed

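RNA of 4 mouse cell populations was measured on 1 Affymetrix array each, and samples were grouped by their titles. Per the submitters' processing notes, the authors computed the deposited log2 signals by RMA with the affy package under R 3.0.2. RMA corrects background, quantile normalizes over arrays and summarises each probe set. That the scale is log2 was judged from the range of the values, 1.70 to 13.85. The sources used here name neither the probe set annotation nor the genome build. Of 25206 probe sets, which carry Entrez gene IDs, 23185 had 1 gene symbol in the platform annotation, 0 had several and 2021 had none and were left out. All 23185 IDs matched a RefSeq gene table of GRCm38.p6, which was used for names, gene order and promoters.

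Differences of log2 signals were taken with Python 3.11.15, numpy 2.4.6 and pandas 2.3.3, and promoters were aligned with Biopython 1.88. No values were normalized again for the main results, and without replicates no test between populations was run. The counting step was checked on simulated signals. The members, the gene lists and the thresholds were chosen with earlier results of these data known. Any member could be named. From the other lists, up to 4 genes with the largest difference at 3w+Dox among those counted in any comparison were named, together with 7 fixed genes. Adh7, Crabp2, Foxa2, Gnmt, Ptgr1 and Rarb fall outside this rule and were chosen after their values were seen. Alternatives were other thresholds, dim filters and scalings, and subsets of the members.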

Additional observations from a re-analysis of the deposited data

How the results depend on the processing

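Of 106 counted differences of single members over the 5 comparisons, 0 changed sign after a second quantile normalization or after centring. Each counted difference is at least 2 log2 units, and both scalings moved the all-gene medians little. For 3w+Dox against Day0 that median went from -0.094 to -0.056 and -0.117. A change of sign was thus hardly possible, and its absence is no support. Other thresholds, dim filters and the floor cannot change a sign. After each of the 2 scalings 105 were kept, the exception being Akr1b8 in iPS against 3w+Dox cells. With a floor at the 25th percentile all 106 were kept. A 2-fold threshold and the lack of a dim filter only loosen the rule, so all 106 had to be kept there. A filter at the 75th percentile (8.82) kept 84, and an 8-fold threshold 66. The numbers of lower members stayed within 1.5 times under both scalings. At 2-fold, lower and higher members numbered 37 and 9 at 3w+Dox against Day0, 9 and 7 in withdrawn against 3w+Dox cells, 42 and 6 in withdrawn cells against Day0, 47 and 5 in iPS cells against Day0, and 26 and 10 in iPS against 3w+Dox cells. At 8-fold they numbered 15 and 1, 1 and 0, 12 and 1, 24 and 0, and 11 and 1 in the same order. With the dim filter at the 75th percentile, higher members numbered 1 at 3w+Dox, 0 in withdrawn and 0 in iPS cells against Day0, and 1 member was lower in withdrawn than in 3w+Dox cells. With Ugt1a genes left out, 1 member was higher in withdrawn cells than at Day0. Raising values below the 25th percentile moved the members' median to -0.068 at 3w+Dox, -0.12 in withdrawn and -0.080 in iPS cells against Day0, and to 0 in iPS against 3w+Dox cells, since many members lie below it. Without members below 6.67 on every array the medians were -1.04, -1.22, -1.45 and -0.45 in the same order. The restriction to genes at or above 8.82 at Day0 was chosen after seeing the data, and left 22, 19 and 28 lower members at 3w+Dox, in withdrawn and in iPS cells against Day0. No paired analysis was possible because each population has 1 array. Precision is limited by the number of arrays, and signals near background limit the size of large folds.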
